A study of Mus musculus with 4 samples.

Results

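The interferon-stimulated antiviral genes described here are 36 named targets and signalling factors of the interferon response, followed in cultured mouse macrophages that had been loaded with fatty acids. They were chosen by symbol in the platform annotation of a whole-transcript array, and 33 of the 36 had a probe set that carries no other gene's symbol, out of 22180 genes with such a probe set. Oas1a and Dtx3l are listed only on a probe set shared with a neighbour, and Ifi44 was not analysed here. Of the 33, 30 had a mean log2 level over the arrays at or above 2.44, the 40th percentile of probe sets, as did 13354 genes in all. The 3 dimmer members were Ifi205, Mx1 and Mx2.

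The groups were Hilpda knockout (KO) macrophages after 12 h and after 24 h, and wild-type (WT) macrophages after the same times. KO cells came from Hilpda-deficient HilpdaΔMΦ mice, and WT cells from floxed littermates (Hilpda flox/flox) that had not lost the gene, all aged 8 to 12 weeks. The labels do not say what drives the deletion or which part of the gene is removed. Bone marrow cells were turned into macrophages over 7 days with medium conditioned by L929 cells, and all 4 groups were then given albumin carrying 600 µM of fatty acid, 1 part palmitate to 2 parts oleate. RNA of 3 samples was pooled on the 1 array of each group, so no difference between 2 arrays has a replicate error, and the number of arrays limits the precision. No group went without fatty acids here, so a difference between the times cannot be told apart from time in culture. The Hilpda probe set was at 5.41 in KO and 5.93 in WT at 12 h and at 5.27 in KO and 5.47 in WT at 24 h, lower in KO at each time by less than 1.5-fold. Whether it lies within the deleted part is not stated by the labels, so it does not check them.

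Type I interferons bind a receptor made of IFNAR1 and IFNAR2. The kinases JAK1 and TYK2 then activate STAT2, which acts with IRF9 at interferon-stimulated response elements before antiviral genes. Macrophages hold a low tonic level of this programme and raise it when sensors of foreign RNA or DNA, or Toll-like receptors, are engaged.

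The core of that element is GAAA, any 2 bases and GAAA again. In RefSeq promoter windows of GRCm38.p6, from 250 bases before to 50 bases after a gene's start, it was found on either strand for 1079 of 27025 genes, or 3.99%. Windows were listed for 27 of the 36 members, and 13 of these (48.1%) held it, some in overlapping copies. Stretches before the start of 5 members are shown because their levels carry the results below, written 5′ to 3′ on the gene's strand with the core in capitals, as read on either strand.
Ifit1, chr19:34640765-34640833, plus strand: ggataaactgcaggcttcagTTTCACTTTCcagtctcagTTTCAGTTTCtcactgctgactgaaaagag
Ifit3, chr19:34583353-34583436, plus strand: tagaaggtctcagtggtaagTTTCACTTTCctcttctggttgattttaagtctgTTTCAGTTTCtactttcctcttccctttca
Oas3, chr5:120777705-120777754, minus strand: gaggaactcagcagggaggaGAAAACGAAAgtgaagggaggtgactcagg
Bst2, chr8:71537567-71537622, minus strand: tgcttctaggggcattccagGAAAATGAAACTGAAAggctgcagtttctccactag
Trim30a, chr7:104465200-104465249, minus strand: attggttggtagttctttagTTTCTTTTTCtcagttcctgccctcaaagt
Ifit1 and Ifit3 each carry 2 copies, and the copy nearer the start ends at position -76 in Ifit1 and -113 in Ifit3. In the windows of Ifit2, Oasl1 and Irf7 these letters were not found, and no window was listed for Oas2.

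**Figure D1:**
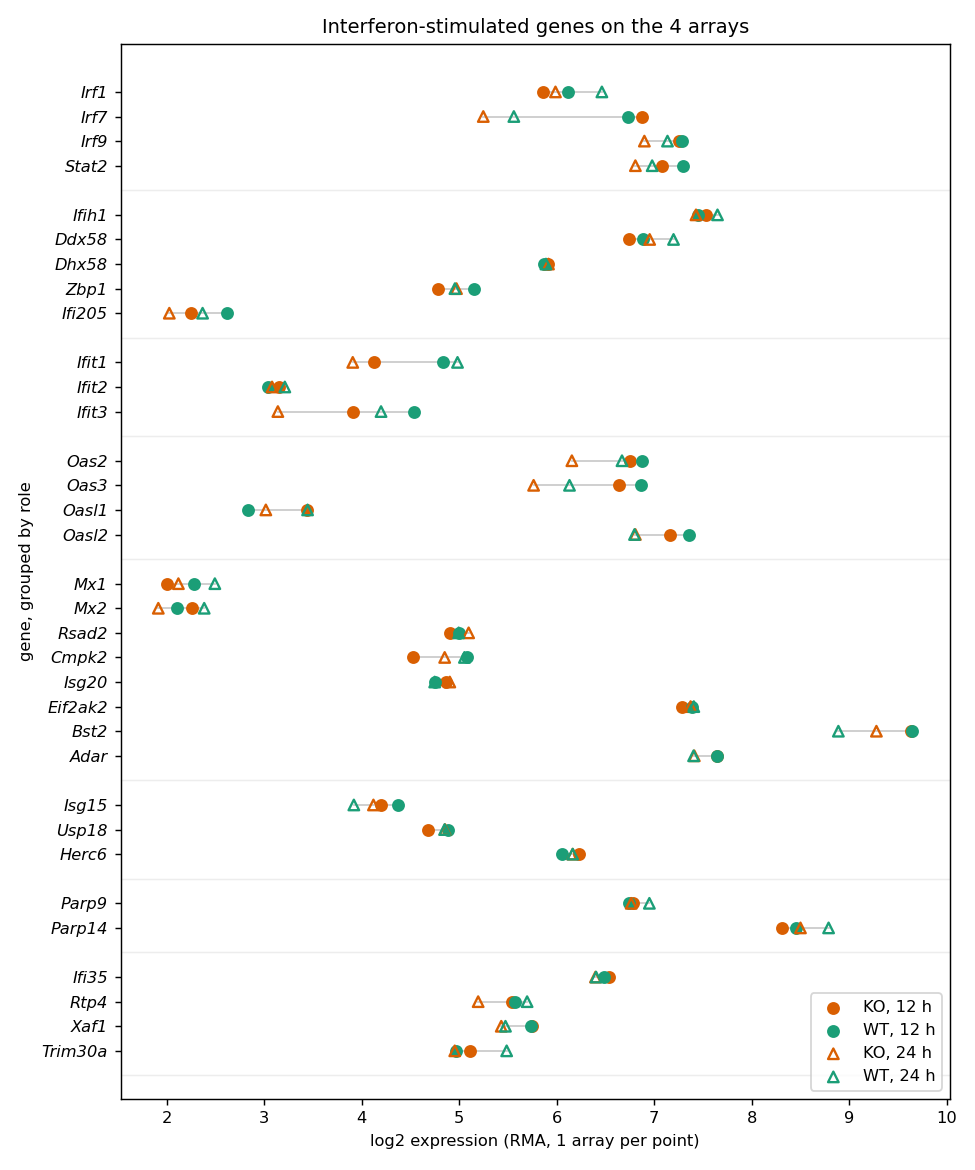
Log2 expression of the 33 members with a probe set of their own, grouped by role from transcription factors at the top to other induced proteins at the bottom. Each point is 1 array, with KO in orange, WT in green, 12 h as filled circles and 24 h as open triangles. For Ifit1 and Ifit3 both KO points lie left of both WT points, and for Irf7 both 24 h points lie left of both 12 h points.

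Ifit1 and Ifit3 were the members with the clearest genotype difference, lower in KO macrophages at both times. They encode tetratricopeptide proteins: IFIT1 binds viral RNA that lacks host cap methylation, and IFIT3 is its partner. Ifit1 had a log2 level of 4.13 in KO and 4.83 in WT at 12 h, and of 3.91 in KO and 4.98 in WT at 24 h. Both KO arrays were below both WT arrays, and KO was lower 1.63-fold at 12 h and 2.11-fold at 24 h. Only 87 and 39 of the 13354 genes had a KO minus WT difference as low or lower.

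Ifit3 had a level of 3.91 in KO and 4.54 in WT at 12 h, and of 3.14 in KO and 4.20 in WT at 24 h. KO was again lower on both pairs of arrays, by 1.54-fold and 2.08-fold. Ifit2, which lies next to Ifit3 on chromosome 19, had 3.15 in KO and 3.04 in WT at 12 h, and 3.08 in KO and 3.21 in WT at 24 h. Its genotype differences of 0.12 and -0.13 had opposite signs, at a level close to background, where the receptor genes' 95th percentile was 2.55. The Ifit3 value of KO at 24 h, 3.14, is as dim. Ifit3b, a near copy of Ifit3 in the same cluster, stayed between 1.49 and 1.95 on the 4 arrays, within the range of background probe sets. An array can mix the signals of such copies, so the share of Ifit3 itself in its value is uncertain.

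Members past 1.5-fold at both times were therefore 2 of the 30 kept, both lower, where 0.225% of all genes kept were lower and 0.142% higher in that way. At 12 h the same 2 members (1.4% of genes) were lower by at least 1.5-fold and 1 member, Oasl1, was higher (1.5% of genes). At 24 h again 2 were lower, beside 3.5% of genes, and 0 were higher, beside 2.97%. Over all 33 members and all 22180 genes the counts of members were the same. Probe sets of 1409 olfactory, vomeronasal and trace amine receptor genes, hardly expressed in macrophages, show how far values at background scatter. They had central 95% ranges of the genotype difference from -0.58 to 0.57 at 12 h and from -0.58 to 0.64 at 24 h. The 12 h values of Ifit3 (-0.62) and Oasl1 (0.60) lie just outside that range.

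**Figure D2:**
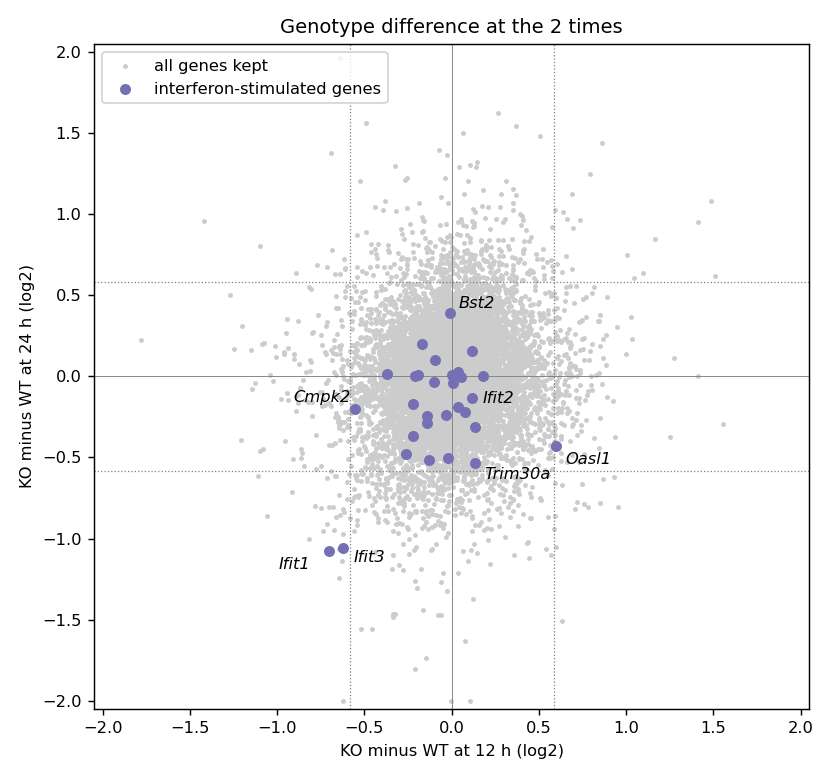
KO minus WT difference (log2) at 12 h on the horizontal axis and at 24 h on the vertical axis. Purple points are the 30 members kept and grey points all 13354 genes kept, with values past 2 in size drawn at 2 and dotted lines at 1.5-fold. Ifit1 and Ifit3 lie apart at the lower left, and the other members lie among the grey points, most of them below 0 at 24 h.

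The other members differed less between the genotypes. The median genotype difference of the 30 members was -0.06 at 12 h and -0.18 at 24 h, beside 0.00 and 0.01 over all genes kept. At 12 h 18 members were below 0, beside 49.4% of genes, and at 24 h 20 were, beside 49% of genes. At both times 12 were below 0 (26% of genes) and 4 above 0 (27.5% of genes). Both KO arrays lay below both WT arrays for 6 of the 30, beside 14.5% of genes: Irf1, Ifit1, Ifit3, Cmpk2, Eif2ak2 and Rtp4. They lay above for 3, Dhx58, Isg20 and Herc6, beside 15.9%. Across the members the differences at the 2 times, which share no array, had a Pearson's r of 0.39 (n = 30 genes, which are not independent), of -0.09 without Ifit1 and Ifit3, and of 0.11 over all genes kept. Spearman's rho over the 30 members was 0.15.

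Among the transcription factors, all 4 were lower in KO at 24 h by less than 1.5-fold. Irf1, a factor induced by both interferon types, had 5.86 in KO and 6.12 in WT at 12 h, and 5.99 in KO and 6.46 in WT at 24 h, with both KO arrays below both WT arrays. Irf7, the factor that amplifies interferon alpha production, was at 6.87 in KO and 6.74 in WT at 12 h, and at 5.25 in KO and 5.56 in WT at 24 h. Stat2 and Irf9, subunits of the factor that binds the response element, had genotype differences of -0.22 and -0.03 at 12 h and of -0.17 and -0.24 at 24 h.

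The sensors of nucleic acids showed little difference between the genotypes. Ifih1, which encodes the RNA sensor MDA5, was at 0.07 and -0.22 at the 2 times, and Ddx58, which encodes RIG-I, at -0.14 and -0.24. Dhx58, which encodes their relative LGP2, lay between 5.87 and 5.91 on all 4 arrays. Zbp1, a sensor of left-handed nucleic acids, was lower in KO at 12 h (4.78 in KO, 5.15 in WT) and at 4.97 in KO and 4.96 in WT at 24 h. Ifi205, of the PYHIN family, was near background with levels from 2.03 to 2.62, and family members close in sequence can share its signal.

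The OAS enzymes make oligoadenylates that switch on the ribonuclease RNase L. Oas2 was at 6.75 in KO and 6.88 in WT at 12 h, and at 6.15 in KO and 6.67 in WT at 24 h. Oas3 was at 6.64 in KO and 6.86 in WT at 12 h, and at 5.76 in KO and 6.13 in WT at 24 h. Both were lower in KO at each time by less than 1.5-fold. Oasl2 had 7.16 in KO and 7.36 in WT at 12 h, and 6.81 in KO and 6.80 in WT at 24 h.

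Oasl1, whose product restrains translation of Irf7 mRNA in mice, went the other way at 12 h. Its level was 3.44 in KO and 2.84 in WT at 12 h, and 3.02 in KO and 3.44 in WT at 24 h. KO was thus 1.52-fold higher at 12 h and 1.35-fold lower at 24 h, and the groups overlapped. The probe set was dim, between 2.84 and 3.44, where the 95th percentile of the receptor genes was 2.55.

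The other effectors kept differed by less than 1.5-fold between the genotypes. Cmpk2, a mitochondrial nucleotide kinase, was lower in KO at 12 h, at 4.52 against 5.08 in WT, and at 24 h, at 4.85 against 5.05 in WT. That is a difference of -0.56 and -0.20, both under 1.5-fold. Its genomic neighbour Rsad2, which encodes the antiviral enzyme viperin, was at -0.09 and 0.10. Eif2ak2, which encodes the RNA-activated kinase PKR, was at -0.10 and -0.03, the editing enzyme gene Adar at 0.00 and 0.01, and the exonuclease gene Isg20 at 0.12 and 0.16. Mx1 and Mx2, dynamin-like GTPases, were at or below the receptor genes' 95th percentile on all 4 arrays, so their differences lie within background. The ISG15 system, a ubiquitin-like modifier with its protease gene Usp18 and the ligase gene Herc6, had differences from -0.21 to 0.18 at 12 h and from 0.00 to 0.20 at 24 h.

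Of the remaining induced genes, Trim30a and Rtp4 had the lowest differences at 24 h. Trim30a, a tripartite motif protein of the mouse, was at 5.11 in KO and 4.97 in WT at 12 h, and at 4.95 in KO and 5.49 in WT at 24 h. The WT 24 h array stood above the other 3. Rtp4, an interferon-induced chaperone with antiviral activity, was at 5.54 in KO and 5.57 in WT at 12 h, and at 5.19 in KO and 5.70 in WT at 24 h, a difference of -0.50. Parp14 and Parp9, which transfer or bind ADP-ribose, were at -0.29 and -0.19 at 24 h, and Xaf1 and Ifi35 at -0.04 and -0.01.

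**Figure D3:**
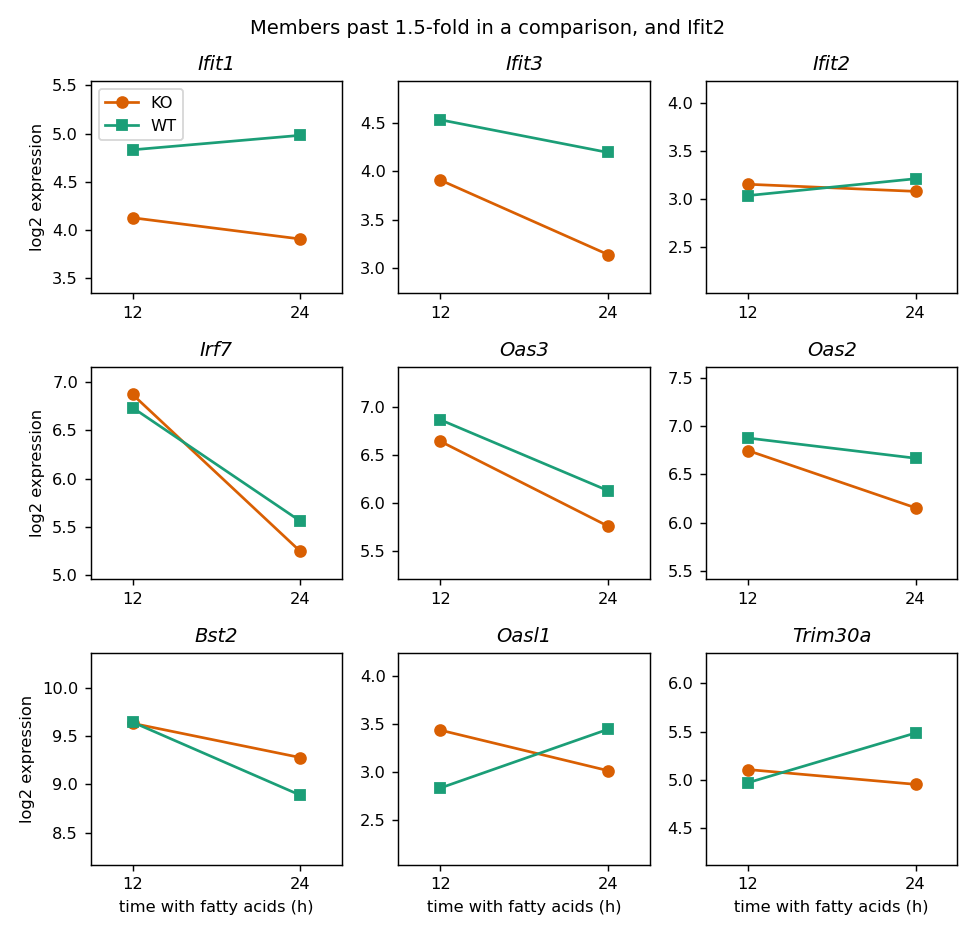
Log2 expression against time with fatty acids (h) for the 8 members past 1.5-fold in a comparison and for Ifit2. Orange circles are KO and green squares WT, 1 array per point, and every panel spans the same range on the log2 axis. KO lies below WT at both times for Ifit1 and Ifit3, the lines of Irf7 and Oas3 descend in both genotypes, and those of Oasl1 cross.

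Between 12 h and 24 h, Irf7 and Oas3 were lower in both genotypes. Irf7 was 3.09-fold lower at 24 h in KO and 2.26-fold lower in WT, and 10 and 64 of the 13354 genes had a time difference as low or lower. Oas3 was 1.84-fold lower in KO and 1.66-fold lower in WT. These were the 2 of 30 members past 1.5-fold downward in both genotypes, where 1.12% of all genes were, and 0 were higher in both, where 1.33% were. The time differences of KO and WT share no array.

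In KO alone, 4 members were lower at 24 h than at 12 h by at least 1.5-fold, beside 3.24% of genes: Irf7, Oas3, Ifit3 at -0.77 and Oas2 at -0.59. None of the 30 was higher, beside 3.05% of genes. In WT 3 were lower, beside 4.01% of genes: Irf7, Oas3 and Bst2. Bst2, the tetherin that holds budding virus at the cell surface, was at 9.28 at 24 h and 9.63 at 12 h in KO, and at 8.89 at 24 h and 9.64 at 12 h in WT. It was therefore the member with the highest KO minus WT difference at 24 h, 0.39. Oasl1 was the 1 member higher at 24 h in WT, at 0.61 (4.73% of genes).

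Below 0 in both genotypes were 12 members, beside 29.8% of genes, and above 0 were 5, beside 29.3%. The 12 included Oasl2, at -0.36 in KO and -0.56 in WT, Isg15, at -0.08 and -0.45, and Xaf1, at -0.31 and -0.26. The sensors Ddx58 and Dhx58 and the factor Irf1 were among the 5 above 0, with Ddx58 at 0.21 in KO and 0.32 in WT. In KO alone 20 members were below 0 (49.6% of genes) and in WT 17 (50.8% of genes). The median time difference of the 30 members was -0.12 in KO and -0.01 in WT, beside 0.00 and -0.01 over all genes kept. The WT median was 0.03 after quantile normalization and 0.02 after loess on level, so its sign is not settled. Across the members, Pearson's r between the time differences of KO and WT was 0.65 (n = 30 genes), 0.35 without Irf7 and Oas3, and 0.42 over all genes kept. Oas1g, a near copy of Oas1a, had levels of 4.43 at 24 h and 5.33 at 12 h in KO, and of 4.99 at 24 h and 5.66 at 12 h in WT.

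**Figure D4:**
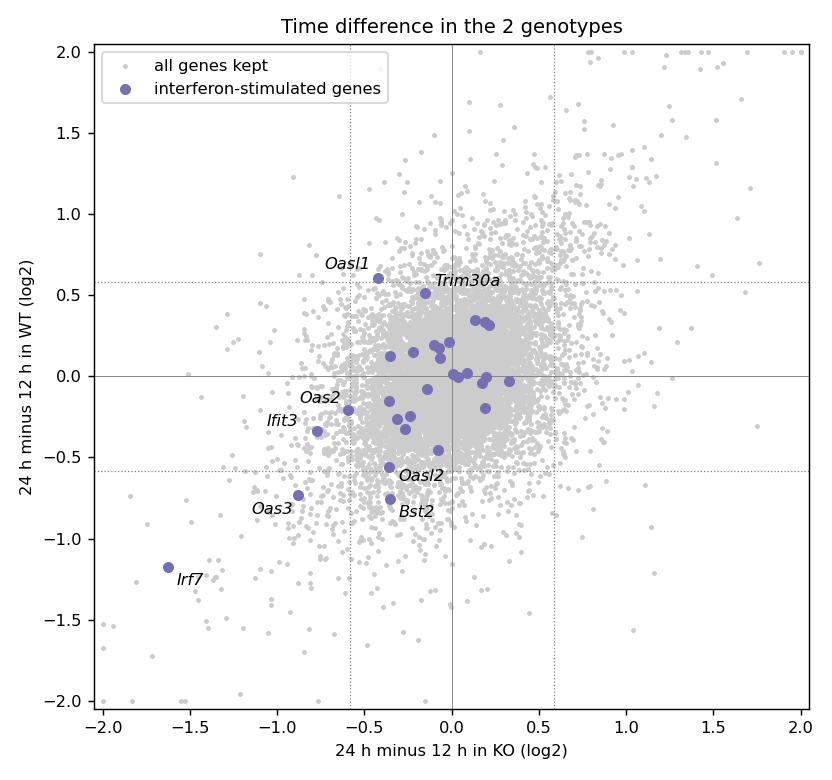
Difference between 24 h and 12 h (log2) in KO on the horizontal axis and in WT on the vertical axis. Purple points are the 30 members kept and grey points all 13354 genes kept, with values past 2 in size drawn at 2 and dotted lines at 1.5-fold. Irf7 lies lowest among the members in both genotypes, followed by Oas3 in KO and by Bst2 and Oas3 in WT, and Oasl1 lies below 0 in KO and above 0 in WT.

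The genotype difference itself moved by at least 1.5-fold between the times for 2 of the 30 members, both downward, beside 5.42% of genes downward and 4.7% upward. These were Oasl1, with a change of -1.03, and Trim30a, with -0.67. The change was below 0 for 19 members, beside 50.1% of genes. Ifit1 and Ifit3 had changes of -0.37 and -0.43. The receptor genes had a central 95% range of this change from -0.78 to 0.85.

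The only test across genes was a limma model of genotype that also held time, and it has 1 residual degree of freedom, which is the change of the genotype difference with time. Ifit1 had a difference of -0.89 with a standard error of 0.14 and an adjusted p of 0.762, and Ifit3 one of -0.84 with 0.15 and the same limma adjusted p. Both standard errors are moderated by limma across all genes, and neither is a replicate error of the gene itself. Of the 30 members 0 had an adjusted p under 0.05 in limma and 4 an unadjusted p under 0.05. Of all genes 0 (0%) and 870 (6.51%) did. The 4 were Ifit1, Ifit3, Irf1 and Cmpk2, all lower in KO.

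Upstream of these genes, most interferon genes were dim, and the interferon receptors differed by less than 1.5-fold between the genotypes. The brightest ligand gene, Ifna4, lay between 4.62 and 4.95. Of 20 ligand genes with a probe set, 10 were kept, and 10 lay at or below the receptor genes' 95th percentile on all 4 arrays, among them Ifnb1, at 1.60 in KO and 1.81 in WT at 12 h and at 2.12 in KO and 1.63 in WT at 24 h. Of the 10 kept, 0 were lower and 1 higher by at least 1.5-fold at 12 h, beside 1.4% and 1.5% of all genes. At 24 h 2 were lower and 2 higher, beside 3.5% and 2.97%. Ifna1 was the 1 of 10 ligand genes kept past 1.5-fold at both times, beside 0.142% of all genes higher and 0.225% lower. It was at 4.30 in KO and 3.26 in WT at 12 h and at 4.10 in KO and 3.49 in WT at 24 h. It belongs to a family of near-identical genes whose signals an array can mix. Of its near relatives kept, Ifna14 was higher in KO at both times, at 0.29 and 0.15. Ifna4 was at -0.04 and -0.15, Ifna7 at -0.15 and -0.14, and Ifna15 at -0.05 and -0.70.

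Of 8 receptor and kinase genes kept, 0 were past 1.5-fold between the genotypes at either time. Of all genes, 1.4% were lower and 1.5% higher at 12 h, and 3.5% and 2.97% at 24 h. Ifnar1 was at -0.16 and -0.10 and Ifnar2 at -0.01 and -0.07, the interferon gamma receptor gene Ifngr1 was at -0.30 at 24 h and the kinase gene Tyk2 at -0.25. Among 6 STAT and feedback genes kept, Socs3, which encodes an inhibitor of JAK signalling, was at 3.37 in KO and 4.23 in WT at 24 h and at 3.20 in KO and 3.34 in WT at 12 h. Its WT 24 h array stood above the other 3. Stat3 was at -0.29 at 24 h. The limb from sensors to IRF activation had 1 of 18 genes past 1.5-fold, at 24 h, beside 3.5% of all genes lower and 2.97% higher. That gene was Tlr9, the receptor for unmethylated DNA. It was at 7.87 in KO and 8.50 in WT at 24 h and at 7.17 in KO and 7.15 in WT at 12 h. Irf3, the factor that starts interferon beta production, was at -0.11 and 0.31.

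Over 63 other interferon-stimulated genes kept, the median genotype difference was -0.01 at 12 h and -0.00 at 24 h. Below 0 were 37 and 33, beside 49.4% and 49% of all genes. At 12 h 1 was lower and 3 higher by at least 1.5-fold, where 1.4% and 1.5% of all genes kept were. At 24 h 6 were lower and 2 higher, where 3.5% and 2.97% of all genes were, and 0 passed in the same direction at both times. The largest differences at 24 h were those of Ifitm1, at 2.33 in KO and 3.43 in WT, and Ifitm2, at 8.26 in KO and 9.11 in WT, membrane proteins that block viral entry. Their differences at 12 h were 0.36 and 0.05, and for each the WT 24 h array stood above the other 3. On those 3 arrays Ifitm1 lay between 2.23 and 2.58, where the receptor genes' 95th percentile was 2.55. Over 18 targets of interferon gamma, the median was -0.01 at 12 h and -0.17 at 24 h, close to the members' -0.18. Of the 18, 14 were below 0 at 24 h, beside 49% of all genes. At that time 4 of the 18 were lower by at least 1.5-fold, beside 3.5% of all genes, with the GTPase gene Gbp7 at 2.45 in KO and 4.65 in WT and the class II gene H2-Aa at 5.95 in KO and 6.87 in WT. For Gbp7 and H2-Aa the WT 24 h array stood above the other 3, and the Gbp7 value of KO at 24 h is below that percentile.

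Members with the response element core in their window had a median genotype difference of -0.14 at 12 h and -0.22 at 24 h over 11 genes kept. Those without it were at 0.03 and -0.09 over 12 genes kept. Below 0 at 12 h were 9 of the 11 and 4 of the 12, beside 49.4% of all genes. At 24 h 8 of each group were, beside 49% of all genes. The 11 include Ifit1 and Ifit3. The 7 members kept with no window listed had medians of -0.13 and -0.19. The groups were formed on the sequence alone, and this difference was not tested.

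The 4 arrays correlated pairwise at 0.984 to 0.988 over all probe sets. All 9 macrophage markers measured passed the level filter, with mean log2 levels of 10.23 in KO and 10.28 in WT at 12 h and of 10.13 in KO and 10.52 in WT at 24 h. At 24 h 8 of the 9 were below 0, beside 49% of all genes. Their median genotype difference was -0.29, further from 0 than the members' -0.18. Cx3cr1 (-1.20) and Itgam (-0.72) were lower by at least 1.5-fold, beside 3.5% of all genes. Of conventional dendritic cell markers, 4 of 4 kept were below 0 at 24 h, beside the same 49% of genes, with a median of -0.25. Stromal markers were lower in KO at both times for 7 of 7 kept, where 26% of all genes were. The median genotype difference of these 7 was -0.56 at 12 h and -0.49 at 24 h. Of the 7, 1 was lower by at least 1.5-fold at both times, as Ifit1 and Ifit3 were, beside 0.225% of all genes. That marker was Pdgfra, at -0.62 and -0.97. The mean level over all 9 stromal markers was 4.42 in KO and 4.82 in WT at 12 h. It was 4.75 in KO and 5.22 in WT at 24 h. Lum and Thy1 lay at or below the receptor genes' 95th percentile. The 3 B cell markers kept, Cd79b, Pax5 and Ighm, were below 0 at both times as well. Ighm was at 6.30 in KO and 6.92 in WT at 12 h and at 8.35 in KO and 9.49 in WT at 24 h. It was the 1 of these 3 lower by at least 1.5-fold at both times, at -0.63 and -1.14. Pax5 (2.31 to 2.81) and Cd79b (2.37 to 3.10) were dim, where the receptor genes' 95th percentile was 2.55. Cd79a and Ms4a1 lay below that percentile on all 4 arrays, at 0.01 and 0.16 at 12 h and at 0.38 and -0.15 at 24 h. The part of these shifts in the lower Ifit1 and Ifit3 values and in the members' medians was not tested. In pooled cultures fewer cells of a type and less RNA per cell cannot be told apart. Of 8 markers of plasmacytoid dendritic cells, the main blood source of interferon alpha, 5 were kept, with medians of 0.07 at 12 h and 0.05 at 24 h. Their differences at 24 h ran from -0.64 to 0.33. Of the 5, 1 was lower by at least 1.5-fold at 24 h, Ly6d, beside 3.5% of all genes. Ly6d (2.16 to 2.80), Siglech (2.68 to 3.21) and Pacsin1 (2.98 to 3.20) were dim as well. All 8 neutrophil markers were under the level filter.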

How the data were processed

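The authors deposited log2 expression values per probe set. The submitters' processing notes name RMA without a version. RMA corrects background, quantile-normalizes the arrays and summarises probes, and a global change in RNA per cell is lost in that step. That the scale is log2 was inferred from the values, with a maximum of 13.2. Of 41345 probe sets, 23521 had 1 symbol in the platform annotation, 1814 several and 16010 none listed; 23477 of the first carry a symbol of the RefSeq table for GRCm38.p6. Only probe sets with 1 symbol were used, and the one with the highest mean for the 1082 genes with more than 1. Genes at or above the 40th percentile of mean level were kept. A difference is KO minus WT at one time, or 24 h minus 12 h in one genotype, and those past 1.5-fold were counted. With 1 array per group these were not tested. A limma 3.58.1 fit (R 4.3.3) with Benjamini-Hochberg adjustment took both times together. The fold rule and the limma fit were also run on simulated data, with noise set in advance and not taken from these arrays. The promoter search was not part of that run. The members and gene lists were chosen with earlier results of these data known. All members were named, and from 6 lists of other pathway genes those past 1.5-fold at both times or, failing any, the 2 largest at 24 h. Ifnar1, Ifnar2, Ifnb1, near copies of members and Hilpda were named always. Ifna4, Ifna7, Ifna14, Ifna15 and the marker genes were named after their values were seen.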

Additional observations from a re-analysis of the deposited data

Results flagged for a closer look

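For 3 members the KO minus WT difference had opposite signs at the 2 times and moved by at least 1.5-fold between them. With 1 array per group this difference between the times was not tested. Oasl1 had a move of -1.03, which lies outside the central 95% range of the receptor genes. Trim30a had a move of -0.67 and Mx2, which is under the level filter, one of -0.63, and both lie inside that range.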

How the results depend on the processing

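Under the alternatives run (all genes without a filter, a 60th percentile filter, median centring, quantile normalization, loess on level, mean over probe sets), the members' median genotype difference lay between -0.09 and -0.05 at 12 h and between -0.21 and -0.15 at 24 h. The median time difference lay between -0.14 and -0.09 in KO, and in WT it turned sign, from -0.05 with median centring to 0.03 with quantile normalization. The median change lay between -0.14 and -0.08. No member past 1.5-fold had the opposite sign in these alternatives. Counts of members are small and moved more. With the 60th percentile filter, which leaves out Ifit3 and Oasl1, the lower members were 1 at 12 h, 1 at 24 h and 1 at both times, the higher ones 0 at 12 h and 0 with time in WT, and 1 had a lower change. Oasl1 lies at the threshold: after quantile normalization 0 members were higher at 12 h, and after median centring, quantile normalization or loess 0 were higher with time in WT. By a 1.3-fold rule, 7 were lower and 1 higher in KO at 24 h, 5 lower and 2 higher with time in WT, and 6 and 2 had a lower and a higher change. By a 2-fold rule, 0 were lower or higher at 12 h, 0 lower at both times, 1 lower with time in KO, 1 lower and 0 higher in WT, and 1 had a lower change. In limma, 0 genes had an adjusted p under 0.05 under every alternative run, the intensity trend and the fit without the time term included, with 440 to 1231 at an unadjusted p under 0.05. Adjusted over all genes, the lowest p of a member was 0.762, and 0.472 to 1 under the alternatives. No paired analysis was possible because of a lack of replicate numbers, with 1 array per group, beyond the pairing of arrays by time that the limma model already holds. Signal over background limits Mx1, Mx2, Ifi205, Oasl1, Ifit2, the lower values of Ifit3 and most interferon genes.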

Other observations

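The probe set listed for both Oas1a and Oas1g, which cannot be given to either gene, was at 4.98 in KO and 4.94 in WT at 12 h and at 5.75 in KO and 4.67 in WT at 24 h, a difference of 1.08 at 24 h. The probe set of Oas1g alone was lower in KO at that time, at -0.57. The probe set listed for both Dtx3l and Parp9 was at 6.94 in KO and 7.07 in WT at 12 h and at 6.96 in KO and 7.05 in WT at 24 h. Ifi35 had a second, dim probe set with genotype differences of -0.05 and -0.14. Ifi204, a near relative of Ifi205, was at 6.34 in KO and 6.36 in WT at 12 h and at 6.78 in KO and 6.49 in WT at 24 h.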
